A study of Xenopus laevis with 20 samples.

Results

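The peaks described here are those on chromosome pair 9_10 of Xenopus laevis, in 4 lists of sites where β-catenin, Smad1 or p300 was found by chromatin immunoprecipitation and sequencing (ChIP-seq). Every peak placed on chromosome 9_10L or 9_10S was taken, each interval once, whatever its strength. This gave 4469 peaks of 43980 in the 4 lists, and the other 8 chromosome pairs held 36732. A further 2779 peaks lay on unplaced scaffolds. By list, the pair held 1700 β-catenin, 788 Smad1, 1552 explant p300 and 429 whole-embryo p300 peaks.

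Embryos were wild type and at Nieuwkoop-Faber stage 20. β-catenin and p300 had each been profiled in 4 ChIP libraries, of foregut or hindgut tissue cut from embryos that had been cultured from stage 12 to stage 20 with 60 μM BIO or with its DMSO vehicle. BIO blocks the kinase GSK3 and so turns on the Wnt pathway. Smad1 and p300 had each been profiled in 1 ChIP library of whole embryos, for which the labels give no treatment. The 20 libraries, 10 of them inputs, form 20 groups of 1 library, and the explant peaks were called on all tissues and treatments pooled, as their names say, so that neither tissues nor treatments could be compared. Read depth is unknown, each list is 1 call set, and peaks are not replicates.

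Xenopus laevis is allotetraploid: after a cross between related frogs its chromosomes come in pairs of a longer (L) and a shorter (S) copy, and the S copies are known for more gene loss and rearrangement. Pair 9_10 is the fused pair, in which the counterparts of chromosomes 9 and 10 of the diploid frog Xenopus tropicalis are joined end to end in both copies. β-catenin carries the canonical Wnt signal to DNA through TCF/LEF factors, Smad1 carries the BMP signal from its receptors to DNA, and the coactivator p300 acetylates histones and marks active enhancers. Wnt and BMP signals both pattern the gut tube along its length. No gene is named and no sequence is printed for any peak, because no genome of the build used for the lists was used here.

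Pair 9_10 was densely occupied. It took up 8.87% of the span of the named chromosomes, where the span of a chromosome runs from its first base to the last peak of any list. It held 11.1% of the β-catenin peaks on named chromosomes (exact 95% interval 10.6 to 11.6), 10.4% of the Smad1 peaks (9.74 to 11.1), 10.9% of the explant p300 peaks (10.4 to 11.4) and 10.4% of the whole-embryo p300 peaks (9.46 to 11.3). In each list this share was larger than the pair's share of the span. Intervals on shares and densities, here and below, cover counting error only, and since neighbouring peaks are not independent they are too narrow.

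β-catenin reached 7.65 peaks per Mb on the pair (exact Poisson 95% interval 7.29 to 8.02), against 5.32 to 6.65 on the other 8 pairs. Explant p300 reached 6.98 per Mb (6.64 to 7.34), against 5.09 to 6.89. For these lists pair 9_10 was the densest of the 9, although for p300 the interval reached below the next pair, pair 8. Smad1, with 3.55 peaks per Mb (3.30 to 3.80), came second to pair 8 at 3.69, and whole-embryo p300, with 1.93 per Mb (1.75 to 2.12), came second to pair 7 at 2.02. Merged into regions across the 4 lists, sites stood at 13.3 per Mb on pair 9_10 and at 9.46 to 12.5 per Mb on the others. With 9 pairs, an exact permutation test of 1 pair against 8 could give no one-sided p below 0.111, so places in the order are given without a test.

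Both copies contributed to this density. The S copy stood out more among its kind than the L copy, but clearly so only for β-catenin. Chromosome 9_10L had 959 β-catenin peaks, or 8.14 per Mb, and 9_10S had 741, or 7.10 per Mb. The other L copies ranged from 5.86 to 7.56 β-catenin peaks per Mb, and the other S copies from 4.70 to 5.89. The β-catenin interval of 9_10S (6.59 to 7.63) lay above that of 7S (5.40 to 6.42), the densest of these. Smad1 had 3.67 peaks per Mb on 9_10L and 3.41 on 9_10S (3.06 to 3.78), where the other S copies did not pass 3.32 (7S, 2.95 to 3.71). Explant p300 had 7.51 per Mb on 9_10L and 6.40 on 9_10S (5.92 to 6.90), against at most 6.06 on another S copy (8S, 5.59 to 6.57). For Smad1 and explant p300 the intervals of these S copies overlapped. Whole-embryo p300 had 1.91 per Mb on 9_10L and 1.95 on 9_10S, level with the 1.95 of 7S. Among L copies, 9_10L was the densest for β-catenin but not for Smad1 or explant p300, in both of which 8L was denser, nor for whole-embryo p300.

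**Figure D1:**
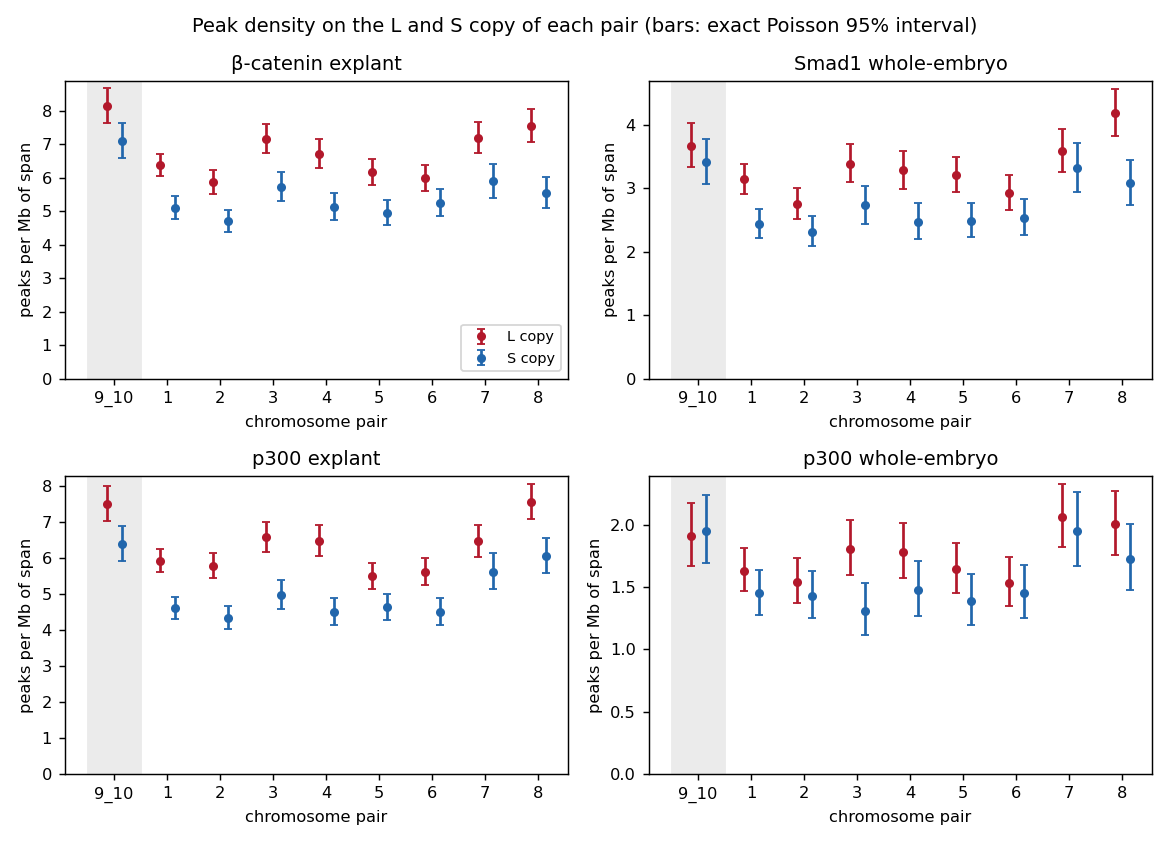
Peaks per Mb of span (vertical axis) on the L copy (red) and the S copy (blue) of each chromosome pair (horizontal axis), 1 panel per peak list, with pair 9_10 shaded at the left. Points are counts divided by span and bars are exact Poisson 95% intervals. The point of 9_10S lies above those of the other S copies for β-catenin (7.10 per Mb), Smad1 (3.41) and explant p300 (6.40). For Smad1 and explant p300 its interval overlaps that of another S copy.

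The excess of peaks on L was smaller on pair 9_10 than on the other pairs. Of all chromosome peaks, 59.8% of β-catenin, 59.6% of Smad1, 60.3% of explant p300 and 57.6% of whole-embryo p300 peaks lay on an L copy. On pair 9_10 the L copy held 959 of 1700 β-catenin peaks (56.4%, interval 54.0 to 58.8), 432 of 788 Smad1 peaks (54.8%, 51.3 to 58.3), 884 of 1552 explant p300 peaks (57.0%, 54.5 to 59.4) and 225 of 429 whole-embryo p300 peaks (52.4%, 47.6 to 57.3). The L share was the lowest of the 9 pairs in each of the 4 lists.

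Set against the other 8 pairs together, the L share of pair 9_10 was lower by 3.84 percentage points for β-catenin (95% Newcombe interval of pair 9_10 minus the others, -6.34 to -1.35). The difference was -5.28 points for Smad1 (-8.96 to -1.65), -3.77 for explant p300 (-6.39 to -1.18) and -5.78 for whole-embryo p300 (-10.8 to -0.835), and none of the 4 intervals reached 0. These intervals are too narrow as well, and since the lists share sites the 4 differences are not independent. The differences are also not corrected for the lengths of the copies, on which the L share depends too. For explant p300 the place in the order rested on peak width: among peaks of middle width the L share was 60.0%, and another pair was lower.

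The copies of pair 9_10 were also the closest in length. The L copy made up 53.0% of the span of pair 9_10, the least of the 9 pairs, against 53.1% to 58.6% in the others. Per Mb of span, β-catenin was 1.15 times as dense on 9_10L as on 9_10S (interval 1.04 to 1.26), and explant p300 was 1.17 times as dense (1.06 to 1.30). For these 2 lists another pair had a lower ratio, pair 6 with 1.14 for β-catenin and pair 7 with 1.15 for explant p300. Smad1, at 1.08 (0.933 to 1.24), and whole-embryo p300, at 0.978 (0.806 to 1.19), had the lowest ratios of the 9 pairs. Both intervals spanned 1, so a difference in density between the copies was not detectable. This was not particular to pair 9_10. For Smad1 the interval also spanned 1 on pair 6 (0.999 to 1.33) and on pair 7, whose ratio was 1.08 too (0.933 to 1.26). For whole-embryo p300 the interval spanned 1 on every other pair but pair 3. The highest ratios were 1.36 on pair 8 for β-catenin and for Smad1, 1.44 on pair 4 for explant p300 and 1.38 on pair 3 for whole-embryo p300.

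**Figure D2:**
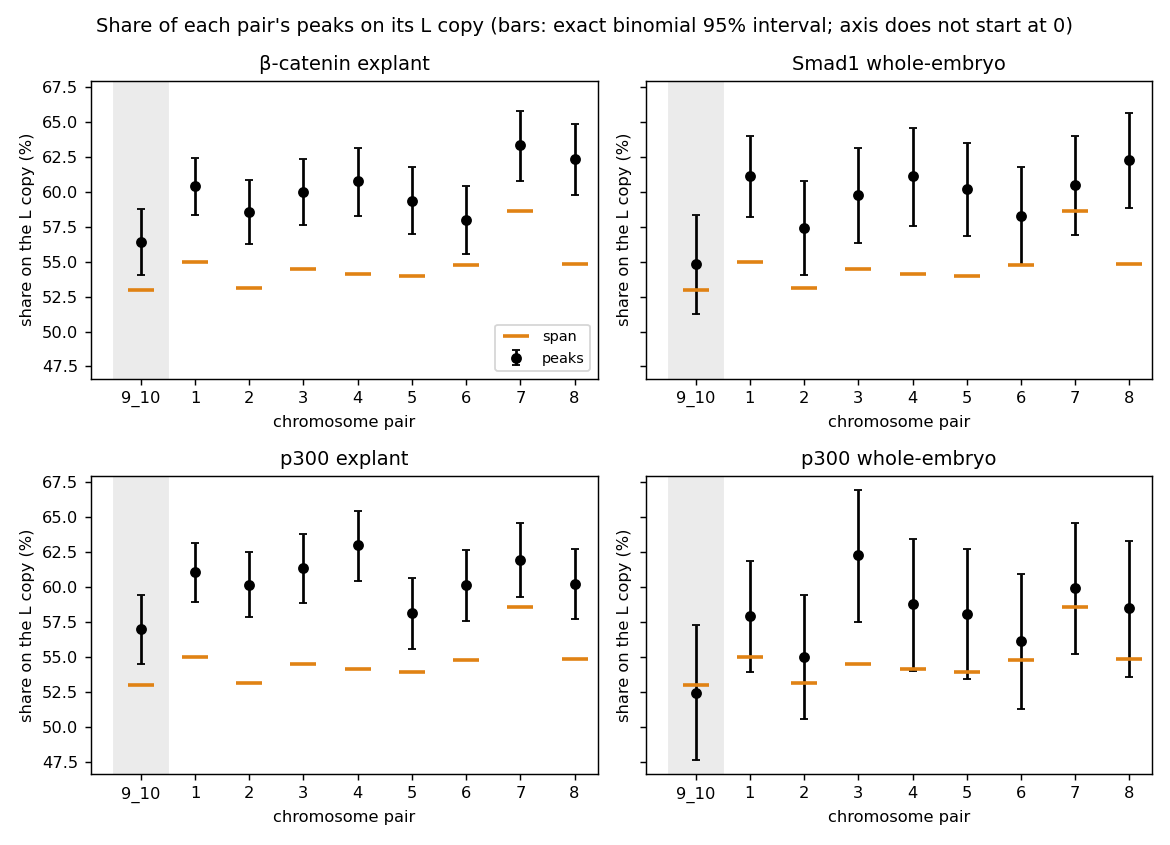
Share of each pair's peaks that lay on its L copy (vertical axis, percent, not starting at 0) for each chromosome pair (horizontal axis, 9_10 shaded at the left), 1 panel per list. Black points carry exact binomial 95% intervals and orange bars give the L copy's share of the span; pair 9_10 is lowest in each panel, at 56.4%, 54.8%, 57.0% and 52.4%, with 53.0% of the span on L.

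Position along the copies was far from even, and it was alike on L and S. Each copy was divided into 10 bins of equal length, numbered from its first base as the authors' files count it. β-catenin was densest in bin 1, with 158 peaks or 13.4 per Mb on 9_10L and 143 peaks or 13.7 per Mb on 9_10S. In bin 3 the counts were 64 on 9_10L and 41 on 9_10S (5.43 and 3.93 per Mb). Another maximum followed on L in bin 4, with 139 peaks (11.8 per Mb), and on S over bins 4 and 5, with 85 and 90 peaks (8.14 and 8.62 per Mb). Bins 8 and 9 were sparse on both copies, with 55 and 55 peaks on 9_10L and 42 and 46 on 9_10S.

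The other lists had a dense start and fewer peaks in bin 3 as well. Smad1 had 80 peaks in bin 1 of 9_10L and 67 in bin 1 of 9_10S, but 25 and 14 in bin 3. Whole-embryo p300 had 42 peaks in bin 1 of 9_10L and 41 in bin 1 of 9_10S, and 8 and 10 in bin 3. Explant p300 departed from this on L, where bin 4 held more peaks than bin 1, 163 against 148. On 9_10S explant p300 had 125 peaks in bin 1, 56 in bin 3 and 94 in bin 4, and its bins 5 and 6, with 54 and 48, were no denser than bin 3.

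Over the 10 bins, the counts on 9_10L and 9_10S correlated with a Pearson r of 0.895 for β-catenin, 0.859 for Smad1, 0.875 for explant p300 and 0.895 for whole-embryo p300 (Spearman's rho 0.851, 0.830, 0.903 and 0.902). These are descriptions over 10 points that share a list and its mappability, and carry no test. The other pairs' own L and S copies gave r between -0.437, on pair 8, and 0.867, on pairs 5 and 6, for β-catenin. For Smad1 they gave r between -0.534, on pair 8, and 0.913, on pair 2. The ranges were -0.457 to 0.805 for explant p300 and -0.269 to 0.757 for whole-embryo p300. With 9_10S counted from its other end, r for pair 9_10 was 0.00735 for β-catenin and at most 0.188 in the 4 lists. Set against the S copies of other pairs, 9_10L gave a median r of 0.0659 for β-catenin, with a range of -0.449 to 0.298. In 50 finer bins r was lower, from 0.487 for whole-embryo p300 to 0.635 for explant p300. The lists also resembled each other along a copy, with r between 0.771 and 0.973 over the 10 bins, so that the 4 correlations between L and S are not independent.

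**Figure D3:**
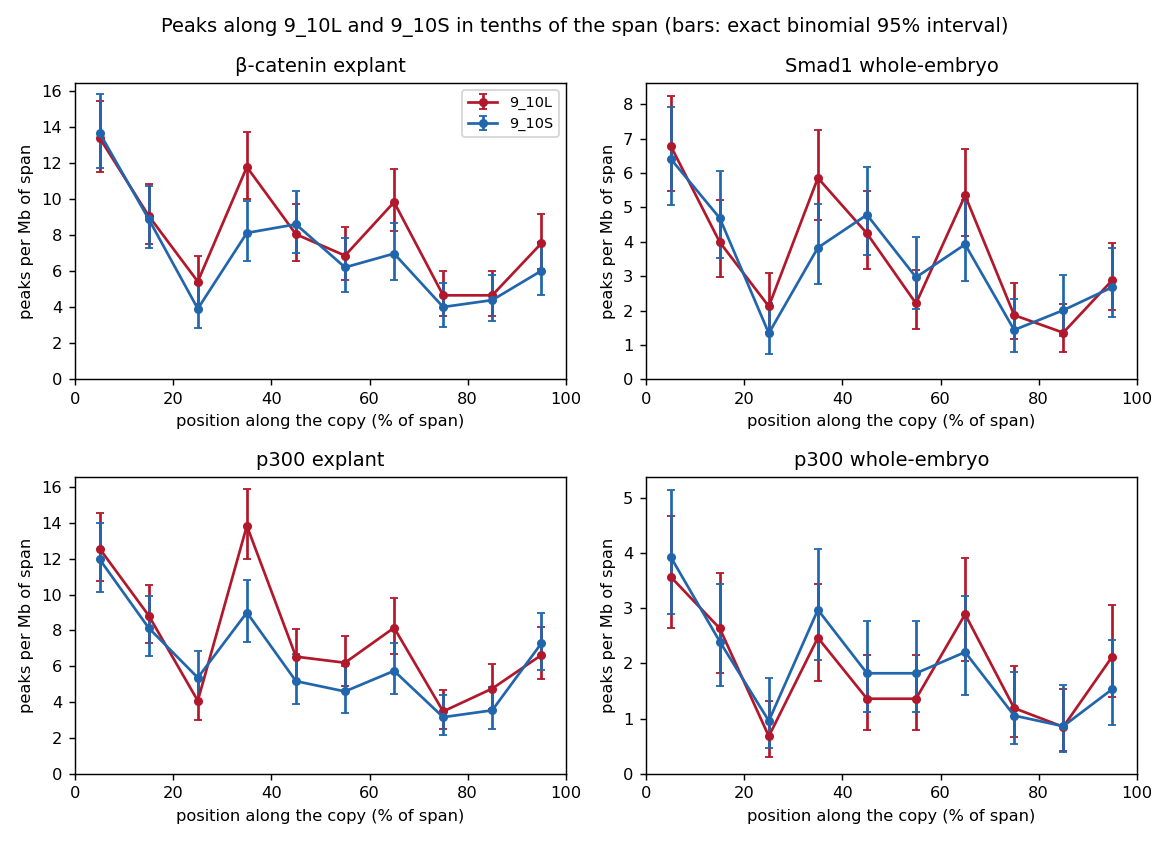
Peaks per Mb of span (vertical axis) in 10 bins of the span (horizontal axis, percent from the first base) of 9_10L (red) and 9_10S (blue), 1 panel per list. Bars are exact binomial 95% intervals of each bin's share of the copy, on the same scale; both lines fall between bins 1 and 3, and for explant p300 bin 4 of 9_10L, at 13.8 per Mb, stands above that of 9_10S, at 9.001.

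Bins 1 and 10 together held more of the peaks than even spacing would give, which is 20%. Over all chromosomes these outer bins held 21.9% of β-catenin, 19.7% of Smad1, 20.6% of explant p300 and 22.1% of whole-embryo p300 peaks. On pair 9_10 the shares were 26.6% (interval 24.6 to 28.8), 26.5% (23.5 to 29.8), 27.5% (25.3 to 29.8) and 28.9% (24.7 to 33.4), the highest of the 9 pairs for all lists but β-catenin, for which pair 4 had 29.0%. The difference from the other 8 pairs together was 5.38 points for β-catenin (Newcombe interval 3.22 to 7.64), 7.65 for Smad1 (4.54 to 11.0), 7.81 for explant p300 (5.54 to 10.2) and 7.61 for whole-embryo p300 (3.31 to 12.3).

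This excess lay mostly at the start of the copies. At their end, the share in bin 10 lay within the range of the other pairs, on both copies and in each list. Bin 1 of 9_10L held 16.5% of its β-catenin peaks and that of 9_10S 19.3%, whereas bin 1 held at most 15.0% on the other L and 15.2% on the other S copies. In bin 10, 9_10L had 9.28% and 9_10S 8.50% of their β-catenin peaks, within the 6.39% to 17.3% of the other L and the 3.63% to 20.4% of the other S copies. Smad1 had 7.87% of its peaks there on each copy, against 5.61% to 14.5% on the other L and 3.04% to 18.0% on the other S copies. The largest bin 10 shares in the other lists were 11.4% for explant p300 on 9_10S and 11.1% for whole-embryo p300 on 9_10L. The other S copies had 3.34% to 15.5% for explant p300, and the other L copies 4.29% to 14.9% for whole-embryo p300. In each list and on both copies, the share in bin 1 was the highest of the 9 pairs.

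Single dense stretches lay at nearly the same place on both copies. The 1 Mb window with most merged regions on 9_10L ran from 13000001 to 14000000, began at 11.0% of the span and held 58 regions, more than any other 1 Mb window on the 18 chromosomes. It contained 43 β-catenin, 29 Smad1, 27 explant p300 and 14 whole-embryo p300 summits. On 9_10S the fullest window ran from 12000001 to 13000000, began at 11.5% of the span and held 48 regions, with 36 β-catenin, 20 Smad1, 23 explant p300 and 10 whole-embryo p300 summits. Such closeness was not particular to pair 9_10, since the fullest windows of 7L and 7S each began at 64.7% of the span. Whether the windows of 9_10L and 9_10S hold the same genes was not analysed here.

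Few long stretches of the pair were without any peak, although 9_10L did not stand out in this. The longest on 9_10L was 1.72 Mb, from 53836257 to 55551563, and on 9_10S it was 1.46 Mb, from 102251865 to 103714304, near the end of the copy. On the other 16 chromosomes the longest gap ran from 1.40 Mb on 5L to 2.62 Mb on 6L. Of the 1 Mb windows of 9_10S, 0 of 105 held no merged region, and 2 of 118 on 9_10L held none. No chromosome but 9_10S was without an empty window. On 7L, 1 of 127 windows was empty, and on 5L 2 of 160 were.

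Median strength and width on the pair were within the range of the other pairs in each list, except for the fold enrichment of whole-embryo p300. Fold enrichment over local background and the peak score, both calculated by the authors, rank peaks inside 1 list and not between lists. The median fold enrichment of β-catenin peaks was 12.3 on the pair (exact order-statistic interval 12.1 to 12.5), against 12.1 on the other pairs, and 12.2 on 9_10L against 12.4 on 9_10S with overlapping intervals. Smad1 had a median fold of 8.27 on the pair and 8.30 elsewhere, and explant p300 had 8.06 on the pair and 8.03 elsewhere. Whole-embryo p300 was at 5.23 (5.03 to 5.44), against 5.41 (5.34 to 5.44) on the other pairs together and 5.27 to 5.44 on each of them, so that pair 9_10 had the lowest median of the 9, although its interval overlapped that of the others together. Median widths were 526, 384, 409.5 and 117 bp for β-catenin, Smad1, explant p300 and whole-embryo p300 on the pair, and 518, 385, 412 and 119 bp on the others.

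The strongest peaks of a list were on the pair about as often as its other peaks for β-catenin, Smad1 and explant p300. The top 10% of a list by score would hold 10% of the pair's peaks if strength were unrelated to chromosome. It held 9.82% of the pair's β-catenin (interval 8.45 to 11.3), 9.64% of its Smad1 (7.67 to 11.9) and 10.4% of its explant p300 peaks (8.90 to 11.999). For whole-embryo p300 it held 28 of 429, or 6.53% (4.38 to 9.30), while the other 8 pairs had 8.90% (8.01 to 9.87), a value inside the pair's interval. The rest of that top 10% lay on unplaced scaffolds.

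The strongest β-catenin peak of each copy by score lay on 9_10S from 12316798 to 12317470, with 37.6-fold enrichment, and on 9_10L from 5469670 to 5471863, with 45.5-fold enrichment. They ranked 5 and 17 among all β-catenin peaks. Both overlapped explant p300, at 7.96-fold and 9.50-fold enrichment, and neither overlapped Smad1 or whole-embryo p300. The first of them lay inside the fullest window of 9_10S. The peaks with the next highest score on each copy were that on 9_10L from 40821075 to 40822004 (35.9-fold) and that on 9_10S from 3129430 to 3130450 (22.3-fold), and both overlapped Smad1 and explant p300.

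The leading Smad1 peaks on the pair were shared with every other list. Those of pair 9_10 lay on 9_10L from 3437101 to 3437591 (31.5-fold) and from 13498563 to 13499137 (24.8-fold, inside the fullest window of 9_10L), and on 9_10S from 72140735 to 72141332 (30.6-fold) and from 66549230 to 66549895 (34.0-fold). All of them overlapped β-catenin, at 16.6-fold to 25.6-fold enrichment, and p300 in explants and whole embryos. At the first of these sites explant p300 was also among its strongest on the L copy, with 16.9-fold enrichment and a summit 53 bp from that of Smad1.

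p300 had strong sites of another kind as well. The highest-scoring explant p300 peak of 9_10L, from 7306003 to 7307427 (19.1-fold), overlapped neither β-catenin nor Smad1, and the peak on 9_10S from 30795766 to 30796185 (19.8-fold) overlapped no other list. By contrast the highest-scoring one of 9_10S, from 67357084 to 67357689 (16.0-fold), overlapped β-catenin at 21.9-fold and Smad1 at 24.6-fold enrichment, with summits within 39 bp. In whole embryos the highest p300 peak of 9_10S, from 43624091 to 43624403 (19.6-fold), overlapped all 3 other lists with each summit 4 bp from its own. The highest of 9_10L, from 77131672 to 77131759, had only 4.24-fold enrichment and overlapped no other list. The peak on 9_10S from 49327856 to 49327971 (15.8-fold) overlapped none either. The remaining peak, on 9_10L from 1036249 to 1036506 (11.4-fold), overlapped all 3 others.

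**Figure D4:**
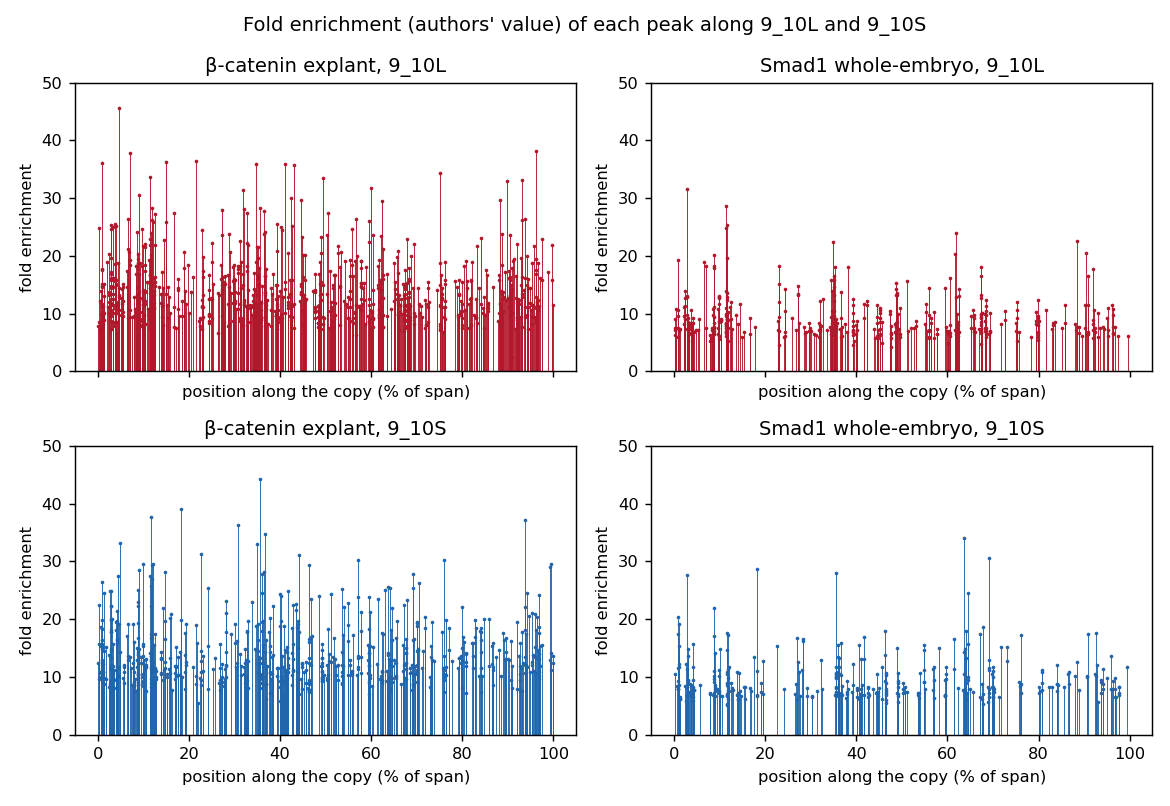
Fold enrichment of each peak (vertical axis, the authors' value) against its position (horizontal axis, percent of the span from the first base) for β-catenin (left) and Smad1 (right) on 9_10L (red, top) and 9_10S (blue, bottom). Every peak is 1 point on a stem; high and low folds are mixed along both copies, and the tallest β-catenin peak of 9_10L, at 45.5-fold, lies in the first 10% of the span.

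Overlap between the lists on pair 9_10 was close to that elsewhere, although in some pairings it was the lowest of the 9 pairs. An overlap was counted from 1 shared bp, and lists from different tissues do not show binding in the same cells. Of the pair's β-catenin peaks, 495 of 1700 (29.1%, interval 27.0 to 31.3) overlapped Smad1, and in the whole list 30.6% did. Of its Smad1 peaks, 501 of 788 (63.6%, 60.1 to 66.9) overlapped β-catenin, and 63.1% of the whole list did. Explant p300 was found at 584 of the 1700 β-catenin peaks (34.4%, 32.1 to 36.7), against 36% of the whole list, and β-catenin at 590 of the 1552 explant p300 peaks (38.0%, 35.6 to 40.5), against 38.9%. Of the Smad1 peaks, 219 of 788 (27.8%, 24.7 to 31.1) overlapped whole-embryo p300, against 26.3% of the whole list, and 463 (58.8%, 55.2 to 62.2) overlapped explant p300, against 59%. Smad1 was found at 461 of the 1552 explant p300 peaks (29.7%, 27.4 to 32.0), against 31% of the whole list. This was just under the 29.96% to 33.6% of the other pairs. Of the whole-embryo p300 peaks, 220 of 429 (51.3%, 46.4 to 56.1) overlapped β-catenin, against 48% of the whole list, and 223 (52.0%, 47.1 to 56.8) overlapped Smad1, against 47.9%.

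For β-catenin and Smad1 the difference of pair 9_10 from the other 8 pairs together had an interval that included 0. It was -2.04 points for β-catenin with Smad1 (-4.29 to 0.300), -2.06 for β-catenin with explant p300 (-4.43 to 0.363), 0.549 for Smad1 with β-catenin (-3.05 to 4.03) and 1.56 for Smad1 with whole-embryo p300 (-1.64 to 4.95). Differences of a few points in either direction are therefore within the counting error. The shares of β-catenin peaks with Smad1 and with explant p300 were still the lowest of the 9 pairs, just under the next, at 29.8% and 35.0%. In the higher-scoring 50% of both lists the share with Smad1 was still the lowest, at 26.1%, but that with explant p300, at 29.9%, was not, and 3 other pairs were lower.

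p300 peaks were shared between explants and whole embryos somewhat less on pair 9_10. Of its whole-embryo p300 peaks, 250 of 429 (58.3%, 53.4 to 63.0) overlapped an explant p300 peak, against 63.8% on the other 8 pairs and 61.3% in the whole list, which includes unplaced scaffolds. The difference from the other 8 pairs was -5.57 points (-10.5 to -0.736), but pair 5, also at 58.3%, was level with it. In the higher-scoring 50% of both lists the share was 53.4%, and 2 other pairs were lower. By copy, 141 of 225 peaks on 9_10L (62.7%, 56.0 to 69.0) and 109 of 204 on 9_10S (53.4%, 46.3 to 60.4) overlapped. The interval of that difference included 0 (9.24 points, -0.101 to 18.4), and on the other pairs it ran from -1.21 to 12.04 points. From the explant side, 243 of 1552 peaks (15.7%, 13.9 to 17.6) overlapped whole-embryo p300, against 17.8% of the whole list, a difference from the other pairs of -2.29 points (-4.14 to -0.288). That share was the lowest of the 9 pairs, the others having 16.7% to 20.3%. The lists differ in length, width and threshold, and absence from 1 list does not show absence from that tissue.

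**Figure D5:**
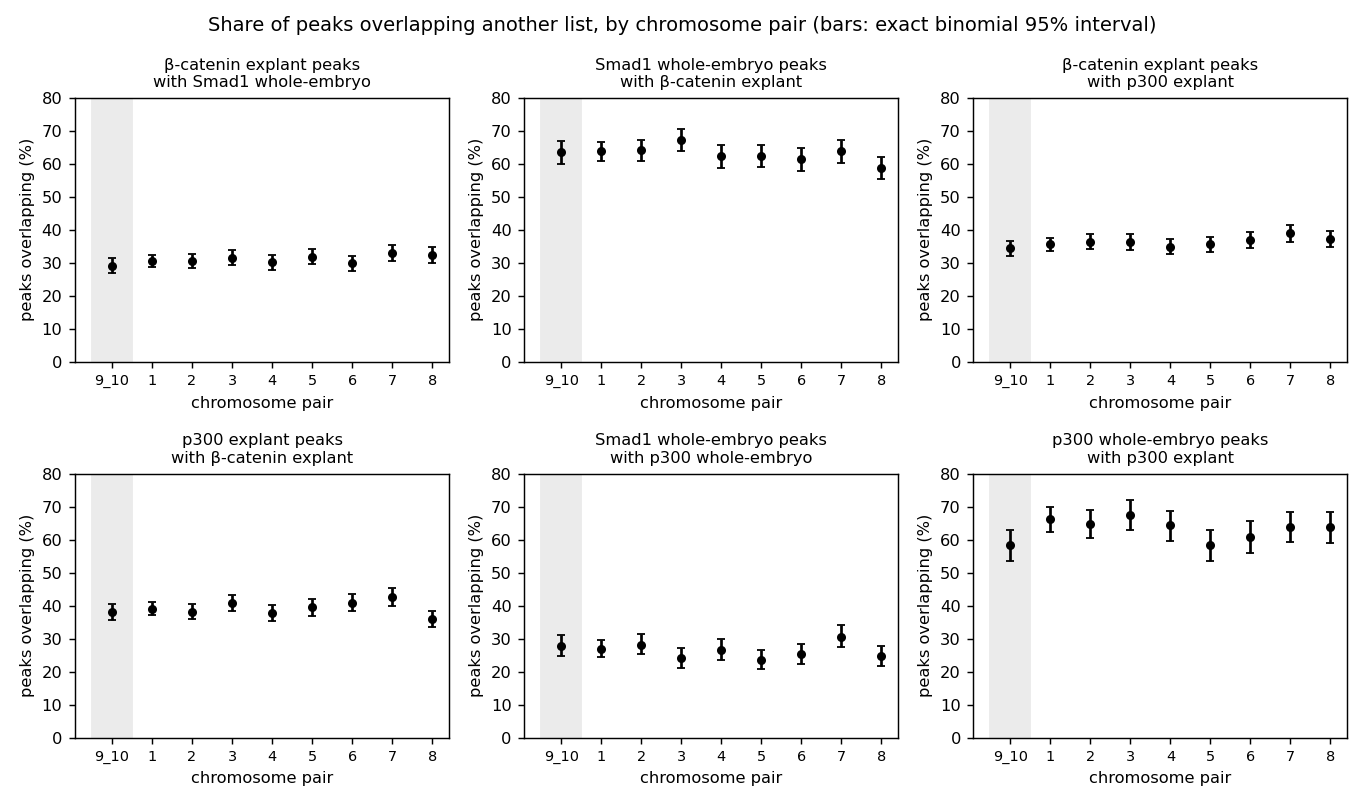
Share of the peaks of one list that overlap another by at least 1 bp (vertical axis, percent) for each chromosome pair (horizontal axis, 9_10 shaded at the left), 1 panel per pairing. Points carry exact binomial 95% intervals; pair 9_10 lies among the other pairs for Smad1 peaks with β-catenin (63.6%) and lowest, beside pair 5, for whole-embryo with explant p300 (58.3%).

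In the other pairings, too, the interval of the difference between the copies included 0. β-catenin overlapped Smad1 at 271 of 959 peaks on 9_10L (28.3%, 25.4 to 31.2) and at 224 of 741 on 9_10S (30.2%, 26.9 to 33.7), a difference of -1.97 points (-6.35 to 2.37). Smad1 overlapped β-catenin at 63.9% of its peaks on 9_10L and 63.2% on 9_10S, a difference of 0.687 points (-6.02 to 7.43). For Smad1 with whole-embryo p300 the shares were 25.9% on 9_10L and 30.1% on 9_10S, a difference of -4.13 points (-10.4 to 2.14). This lay just outside the other pairs, at -3.95 to 2.15 points. So did β-catenin with whole-embryo p300 (-2.70, others -2.13 to 2.88) and whole-embryo p300 with β-catenin (-3.16, others -2.25 to 13.5). In the remaining pairings the difference lay within the range of the other pairs. Where the lists overlapped, Smad1 summits lay a median of 28.5 bp (25 to 33) from the β-catenin summit on 9_10L and 26 bp (23 to 30) on 9_10S, against 27 bp on the other pairs.

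β-catenin peaks that carried Smad1 carried p300 far more often than those that did not, on both copies. With Smad1 present, 366 of 495 β-catenin peaks overlapped explant p300 (73.9%, 69.8 to 77.8), and without Smad1, 218 of 1205 did (18.1%, 16.0 to 20.4). In the whole list the shares were 73.9% and 19.2%. On 9_10L they were 75.3% with Smad1 (69.7 to 80.3) and 19.8% without it (16.9 to 22.9), and on 9_10S 72.3% with it (66.0 to 78.1) and 15.9% without it (12.8 to 19.3). Whole-embryo p300 overlapped 35.6% of the pair's β-catenin peaks that had Smad1 and 3.24% of those that did not, against 33.8% and 3.59% of the whole list. Seen from Smad1, explant p300 lay at 369 of 501 peaks with β-catenin (73.7%, 69.6 to 77.5) and at 94 of 287 without β-catenin (32.8%, 27.4 to 38.5), against 73.6% and 33.9% of the whole list.

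On each copy the 3 joint sites with the strongest β-catenin score, where Smad1 and explant p300 were present too, were singled out. Besides the peaks of 9_10L at 40821075 and of 9_10S at 3129430 named above, these were on 9_10L from 88548112 to 88548965 and from 58315141 to 58315932, and on 9_10S from 79448325 to 79449987 and from 46239509 to 46240167. The site at 88548112 had 34.4-fold β-catenin, 11.96-fold Smad1 and 13.2-fold explant p300 enrichment, with both partner summits 17 bp from that of β-catenin. The site at 79448325 had 30.2-fold, 17.2-fold and 18.3-fold enrichment, and lay at 76.1% of the span of 9_10S, where the site at 88548112 lay at 75.2% of the span of 9_10L. The other joint sites lay at 34.7% and 49.5% of 9_10L and at 3.00% and 44.3% of 9_10S. Whether any of these sites correspond between the copies was not analysed. At 58315141 the site had 33.5-fold β-catenin, 10.99-fold Smad1 and 7.95-fold explant p300 enrichment, and at 46239509 it had 31.1-fold, 7.15-fold and 6.56-fold enrichment with the partner summits 140 and 187 bp from that of β-catenin. The peak at 40821075, with more β-catenin enrichment than any of these, had low Smad1 and p300 enrichment, at 6.25-fold and 7.07-fold, under the list medians given above. The site at 46239509 was under both medians too, and that at 58315141 was under the explant p300 median.

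Merged across lists, the pair's peaks formed 2965 regions, 1659 on 9_10L and 1306 on 9_10S. The L share of regions was 55.95% (54.1 to 57.7), against 59.6% over all chromosomes, again not corrected for the lengths of the copies. Of these regions, 2069 (69.8%, 68.1 to 71.4) were in 1 list, against 68.1% over all chromosomes, and 150 (5.06%, 4.30 to 5.91) were in all 4, against 5.34%. Of the regions in all 4 lists, 76 were on 9_10L and 74 on 9_10S. They made 4.58% (3.63 to 5.70) of the regions of 9_10L and 5.67% (4.48 to 7.06) of those of 9_10S. These intervals overlapped, and the split was not compared with that on other pairs. The merged region with most peaks on 9_10S, from 37194224 to 37195670, held 6 peaks of all 4 lists, and the first of the 5 regions of 9_10L that held 5 peaks ran from 2569759 to 2571183.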

How the data were processed

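The submitters' processing notes name MACS2, Bowtie2, SAMtools, Picard, Trimmomatic and FastQC, but neither their versions nor what each was used for. The genome build and these details are not given in the sources used. The authors deposited 4 peak lists without headers, in the column layout of MACS2 narrow peaks. Each deposited peak has a score, a fold enrichment (a ratio over local background), the −log10 of its q-value and a summit position. The names of 3 lists mention IDR (irreproducible discovery rate), and that of the whole-embryo p300 list does not. Peak names in the same 3 lists give a pooled experiment against a control, for Smad1 too, although the labels give 1 Smad1 ChIP library, and the Smad1 peaks are named pSmad1 there.

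Repeated intervals, on 4 lines of 9_10L and 3 of 9_10S in the whole-embryo p300 list, were kept once with their highest score. Spans ran from position 1 to the last peak of any list, since chromosome lengths of this build were not used here. Coordinates count from 1. Shares have exact (Clopper-Pearson) 95% intervals, densities exact Poisson intervals, differences Newcombe intervals and medians order-statistic intervals. No test over peaks was run, and depth per sample is unknown. Overlap and merging were tested on simulated lists. Named regions were the 2 highest scores of each list on each copy, the 3 highest-scoring β-catenin peaks on each copy that overlapped Smad1 and explant p300, and on each copy the longest gap, the fullest 1 Mb window and the merged region with most peaks. The pair and all choices were made with earlier results of these data known. Alternatives were the higher-scoring 50% of a list, peaks of middle width (25th to 75th percentile), another span, another denominator, a shared length of at least 50% of the shorter peak, a summit distance of at most 200 bp and the other p300 list. Python 3.11.15, numpy 2.4.6, pandas 2.3.3 and scipy 1.17.1 were used.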

Additional observations from a re-analysis of the deposited data

How the results depend on the processing

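Of 55 alternatives to the 24 shares and density ratios, 42 gave a value within the exact interval of the one reported. The L share of the pair stayed the lowest of the 9 pairs in the higher-scoring 50% of each list and among peaks of middle width, except for explant p300 of middle width, whose L share was 60.0% and second lowest. With unplaced scaffolds in the denominator the pair's share of peaks was 10.4% for β-catenin, 10.2% for explant p300 and 9.42% for whole-embryo p300 (8.59 to 10.3). In the higher-scoring 50% of the whole-embryo p300 list it was 9.41% (8.18 to 10.8). Both whole-embryo p300 intervals include the pair's 8.87% of the span, a share that leaves scaffolds out. In the higher-scoring 50% of both lists, overlap was 26.1% for β-catenin with Smad1, 58.8% for Smad1 with β-catenin, 29.9% for β-catenin with explant p300, 19.3% for Smad1 with whole-embryo p300, 53.4% for whole-embryo with explant p300 and 33.3% for explant p300 with β-catenin. In that setting, where both lists hold fewer peaks, 2 pairings were no longer the lowest of the 9 pairs, β-catenin with explant p300 and whole-embryo with explant p300. With the whole-embryo in place of the explant p300 list, p300 overlapped 35.6% of β-catenin peaks that had Smad1 and 3.24% of those that did not, that list being shorter and narrower. Finer bins for the correlation of L with S, and every deposited line of the whole-embryo p300 list, were added after seeing the data. No paired analysis was possible because each group has 1 library and the lists hold no value per sample. The spans are estimates from the peaks, and intervals take no account of the clustering of peaks, mappability or the unknown depth.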

Other observations

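The share of β-catenin peaks with a partner varied along pair 9_10. The span of each copy was again taken in 10 bins, and both copies together. Smad1 was present at 73 of 189 β-catenin peaks in bin 7 (38.6%, exact 95% interval 31.6 to 46.0) and at 101 of 301 in bin 1 (33.6%, 28.2 to 39.2). In bin 9 it was present at 16 of 101 (15.8%, 9.33 to 24.4), the lowest share of the 10. Explant p300 followed the same order at its upper end, at 82 of 189 β-catenin peaks in bin 7 (43.4%, 36.2 to 50.8) and 120 of 301 in bin 1 (39.9%, 34.3 to 45.6), and was lowest in bin 6, at 38 of 146 (26.0%, 19.1 to 33.9). Of the explant p300 peaks of bin 4, 85 of 257 overlapped β-catenin (33.1%, 27.4 to 39.2), and of those of bin 7, 82 of 156 did (52.6%, 44.4 to 60.6). In the whole lists, 30.6% of β-catenin peaks overlapped Smad1, 36% overlapped explant p300, and 38.9% of explant p300 peaks overlapped β-catenin. The intervals given for bins 1 and 4 include these shares. Bins of the other pairs are not given here. The bins singled out here were chosen after their values were seen, and differences between them were not tested.

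Turning S round changed the correlation of L with S differently from pair to pair. Over the 10 bins, r between the counts on L and S was taken with S in the same direction and turned round. It was higher in the same direction in all 4 lists for 6 of the 9 pairs, pairs 9_10 and 4 among them. The higher r was not always positive, as for Smad1 on pair 4 (-0.278, against -0.328 turned round). For 1 pair, pair 8, the correlation was higher with S turned round in all 4 lists, with r from 0.599 to 0.778 turned round and from -0.534 to -0.269 in the same direction. The count depended on the number of bins. In 50 bins, pair 4 had a higher r with S turned round in each list, such as 0.196 against 0.142 for β-catenin.

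Neighbouring β-catenin summits on the pair were a median of 36.0 kb apart, against 44.4 kb on the other 8 pairs. By copy, the median was 35.9 kb on 9_10L and 36.4 kb on 9_10S for β-catenin, 36.9 kb and 47.7 kb for Smad1, 32.4 kb and 42.8 kb for explant p300, and 223.6 kb and 182.3 kb for whole-embryo p300. On the other 8 pairs, both copies together, the median was 49.5 kb for Smad1, 41.7 kb for explant p300 and 239.6 kb for whole-embryo p300. Explant p300 summits on 9_10S, at 42.8 kb, were thus not closer together than elsewhere. These medians have no interval, and differences between them were not tested.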
